A study of Mus musculus with 24 samples.

Results

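Thyroid tumours labelled recurrent were compared with pools of normal thyroid glands in the mouse. The comparison took its members from the tissue label: 9 recurrent tumour arrays and 6 normal pool arrays, 15 of the 24 arrays in the series. Its title places the study in mouse anaplastic thyroid cancer, an undifferentiated and aggressive form, and in Met amplification and Hgf overexpression as routes by which tumours resist inactivation of BRAF. Every sample was total RNA on an Affymetrix Mouse430A_2 array, extracted with the same kind of spin kit. The titles mark 4 pools WT and the other 2 Cre, with no word on what Cre was driven by or acted on, and those of the recurrent tumours give codes alone. The labels otherwise give no strain, allele, age, sex or treatment for either group, they do not say what the recurrent tumours grew back from, and how many glands made up a pool is not stated there. The series' design text says that thyroids and tumour-bearing glands were taken, so the tissue next to a tumour may be in the same sample. The labels do not say that the arrays stand for separate animals, and p-values then measure only the spread between these samples.

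The thyroid follicle is a sphere of epithelial cells that stores iodinated thyroglobulin in its lumen. Follicular cells take up iodide at the basal side, couple it to thyroglobulin at the apical side, and recover the unused iodide from by-products. A small set of transcription factors, Pax8 and Nkx2-1 among them, keeps these genes on. The BRAF kinase drives the MAPK cascade, whose output includes immediate early genes, D cyclins and the feedback phosphatase Dusp6. MET, a receptor tyrosine kinase, and its ligand HGF feed the same cascade from the cell surface.

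Values are log2 intensities after RMA, a method that corrects background, brings arrays to a common distribution and sums the probes of a probe set. A step of 1 is therefore a 2-fold step in signal. RMA gives no detection call, and 25% of all values on the 15 arrays lay below 5.90. Array medians ran from 7.38 to 7.57. The recurrent tumours differed far more among themselves than the pools did: the mean SD of a gene was 0.67 over recurrent tumours and 0.24 over pools, and 11746 of 12394 genes had the larger SD in the tumours. The median correlation between 2 arrays was 0.905 among recurrent tumours (0.813 to 0.969) and 0.989 among pools (0.97 to 0.993).

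Some arrays stood apart from their group. Recurrent 6 had the lowest mean level of the mitosis, collagen, mesenchymal and macrophage lists among the tumours, at 6.39, 9.78, 7.97 and 7.03, and the highest epithelial mean, at 10.17. Recurrent 2 and recurrent 3 had skeletal muscle means of 5.77 and 6.32, below the 7.23 to 13.59 of the other recurrent tumours. Among pools, normal 5 had an adipocyte mean of 8.62, against 10.87 to 11.10 in the other pools, and a macrophage mean of 9.12, against 7.49 to 7.87. Array titles also fall into series: 3 recurrent tumours and 4 pools have JK in the title, the other 6 recurrent tumours have a bare number, and the other 2 pools have Cre. Outside the JK series, title type and group cannot be told apart. The signal of the 3 prime Gapdh control probe set minus that of the 5 prime set, a measure of RNA integrity, averaged 0.25 ± 0.38 (SD, n = 9) in recurrent tumours and 0.75 ± 0.13 (SD, n = 6) in pools, a difference of -0.50 (two-sided exact permutation test, p = 0.0124). Within the JK series it was -0.04 (exact permutation p = 0.857), with 0.68 ± 0.36 (SD, n = 3) in tumours and 0.72 ± 0.09 (SD, n = 4) in pools, and outside it -0.78 (exact permutation p = 0.0714). With the 6 tumours and 2 pools outside JK, that p is the lowest this test can give. The tumours there had -0.02 to 0.17 and the pools 0.64 to 0.98. The part of RNA integrity in the results was not tested.

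Of 12394 genes, limma called 3148 different at an adjusted p under 0.05, or 25.4%. Of these, 1330 (10.7%) were higher and 1818 (14.7%) lower in recurrent tumours, and 1724 differed by at least 2-fold. A stricter description asks that the 2 groups do not overlap at all, which was the case for 994 genes (8.02%). Of these, 359 (2.90%) lay above every pool in all 9 recurrent tumours and 635 (5.12%) below every pool in all 9, and 982 of the 994 were also called. The distance between the closest arrays of the 2 groups is called the gap: it reached 1 or more for 18 genes in the higher direction and for 102 in the lower.

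Falls were shared by more tumours than rises were, as the plot of genes by number of tumours outside the pools shows. Genes above every pool in a single recurrent tumour numbered 2730, and genes below every pool in a single one 1858. From 4 tumours upward the order was the other way: 644 genes were above the pools in 8 tumours and 961 below them in 8. Recurrent 6 was the array that most often kept a gene from separating fully: 715 genes were outside the pools' range in the other 8 tumours alone. Without it, the non-overlapping genes numbered 700 higher and 1009 lower, and limma called 1718 higher and 2249 lower. All 3148 called genes had the same sign within the JK series and outside it, although these arrays are part of the pooled fit. Fitted alone, the JK arrays gave 1575 higher and 1957 lower calls, and the 6 tumours and 2 pools outside JK gave 19 and 168.

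**Figure D1:**
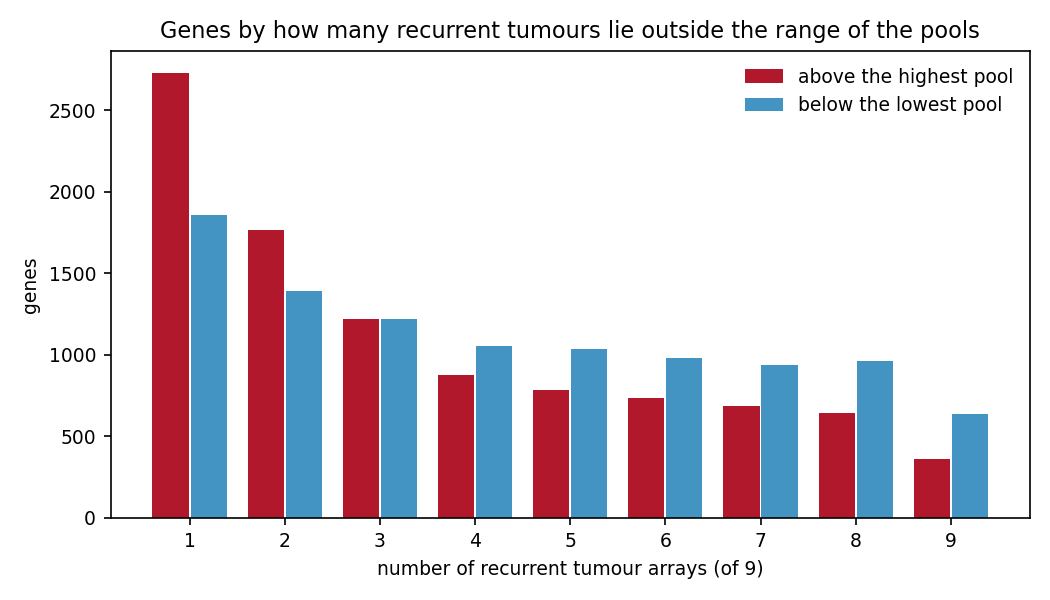
Number of genes (vertical axis) by how many of the 9 recurrent tumour arrays (horizontal axis) lie above the highest pool or below the lowest pool. Few genes separate fully in either direction, 359 above and 635 below in all 9 tumours, while 2730 genes exceed the pools in 1 tumour only.

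Thyroid differentiation genes fell almost throughout. Of 19 genes of the list, 13 were measured: 10 were called lower, 1 higher and 2 were not called, with a median difference of -3.33, against -0.03 over all genes. For 9 of the 10 the groups did not overlap. Of all genes, 10.7% were called higher and 14.7% lower, and 5.12% were lower without overlap. The list's counts of calls were the same whichever of the 15 arrays was left out. In bulk tissue, fewer cells of a type and less RNA per cell cannot be told apart, here and in every list that follows.

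Tg, which encodes thyroglobulin, the hormone precursor, ranged from 4.61 to 14.18 with a median of 5.11 in recurrent tumours, against 14.80 to 14.96 with a median of 14.88 in pools. Its difference was -8.17 ± 1.34 (SE, limma adjusted p = 0.000496). Recurrent 4 at 14.18 came close to the pools, recurrent 1 was lower at 11.31, and the other 7 tumours were at 5.86 or lower, below the 5.90 under which 25% of all values lay. Iyd, the deiodinase that recovers iodide from iodotyrosines, had the same order at the top, with 9.88 in recurrent 4 and 7.27 in recurrent 1, a median of 4.81, and 13.24 to 13.42 in pools (difference -7.61, limma adjusted p = 3.54e-06). Dio1, a deiodinase that activates thyroid hormone, reached 9.38 in recurrent 4 and stayed between 3.86 and 5.70 in the other tumours, against 11.96 to 13.04 in pools (difference -7.20, limma adjusted p = 2.42e-06). Recurrent 4 was thus the highest tumour for all 3 genes.

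The transcription factors of the lineage differed in how far they fell. Pax8 had a range of 4.76 to 7.70 and a median of 5.42 in recurrent tumours, against 11.12 to 11.98 and a median of 11.47 in pools, and its difference was -5.91 ± 0.35 (SE, limma adjusted p = 3.27e-08). Its highest tumour was again recurrent 4. Hhex, a homeobox factor of the gland, spanned 5.62 to 8.80 in tumours and 10.51 to 11.32 in pools (-3.33, limma adjusted p = 0.000145), with recurrent 6 and recurrent 7 lowest at 5.62 and 5.91. Nkx2-1 was low on this array in both groups, at 5.07 to 6.23 in tumours and 6.11 to 6.68 in pools (-0.62, limma adjusted p = 0.00956), and it was the gene called lower whose ranges met.

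Membrane proteins of hormone synthesis followed. Tshr, the receptor for thyrotropin, spanned 4.71 to 6.48 in recurrent tumours and 8.07 to 9.62 in pools (-3.55, limma adjusted p = 3.7e-06). Slc5a8, an apical monocarboxylate transporter, spanned 4.47 to 8.99 in tumours and 9.21 to 10.50 in pools (-4.20, limma adjusted p = 0.000145), with recurrent 6 the highest tumour. Slc5a5, the sodium-iodide symporter, was 6.39 to 7.03 in tumours and 7.06 to 7.63 in pools, a gap of 0.03, and its difference was -0.69 (limma adjusted p = 0.00189). Duoxa2, the maturation factor of a dual oxidase that makes the peroxide for iodination, fell by 1.60 (limma adjusted p = 3.66e-05). Duoxa1 and the anion transporter Slc26a4 were not called, at -0.07 and -0.24 (limma adjusted p = 0.952 and 0.261). Dio2, another activating deiodinase, went the other way: it was above every pool in 8 of 9 tumours, at 7.07 to 10.38 in tumours and 7.26 to 8.21 in pools (1.33, limma adjusted p = 0.0162), though another of its probe sets gave -0.09.

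**Figure D2:**
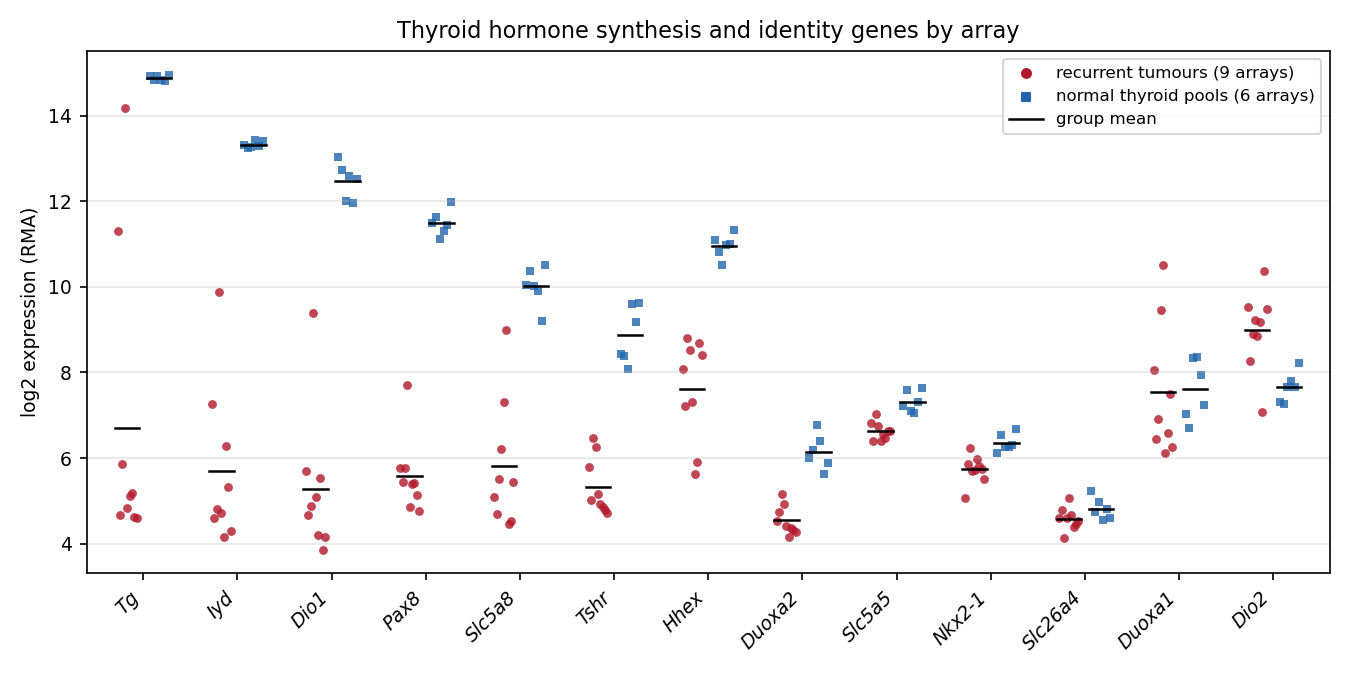
Log2 level of the 13 measured thyroid differentiation genes (horizontal axis) on each array, with recurrent tumours as circles left of the pools as squares and a line at each group mean. Tg, Iyd and Dio1 show 1 or 2 recurrent tumours far above the rest, with recurrent 4 at 14.18 for Tg, while Dio2 is the called gene that is higher in tumours.

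The 15 widest gaps among lower genes held 3 members of the thyroid list, Pax8, Iyd and Dio1, and also genes of other roles. The widest belonged to Cdh16, a cadherin of thyroid and kidney epithelium: it was 5.43 to 7.88 in recurrent tumours with a median of 5.74, against 12.02 to 12.74 with a median of 12.44 in pools. The gap was 4.14, and the difference was -6.36 ± 0.31 (SE, limma adjusted p = 3.23e-09), an 82.1-fold lower signal. Slc4a5, a sodium bicarbonate cotransporter, was 4.58 to 7.66 in tumours and 11.77 to 12.12 in pools (-6.64, limma adjusted p = 3.35e-08), and Slc26a7, an anion exchanger of the follicular cell, was 3.98 to 5.27 in tumours and 8.63 to 9.67 in pools (-4.89, limma adjusted p = 1.64e-09). Both transporters thus separated by more than 3 on the log2 scale, by 4.11 and 3.36.

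Among the others were Ager, a receptor of the immunoglobulin family best known from alveolar cells, with 6.14 to 8.07 in recurrent tumours and 11.93 to 12.51 in pools, and Elovl2, an elongase of polyunsaturated fatty acids, with 3.27 to 4.42 in tumours and 7.86 to 8.53 in pools. Fgf1, a fibroblast growth factor, was 4.81 to 6.49 in tumours and 9.86 to 10.47 in pools. Folr1, a folate receptor, was 4.52 to 7.77 in tumours and 10.61 to 11.80 in pools, and its highest tumour was recurrent 6. The cadherin Cdh4 fell by 4.16, the lens crystallin family gene Crygn by 4.52, the lipid phosphatase-related Plppr4 by 4.46, the cytokine receptor Il17rb by 4.08 and the secretory granule chaperone Scg5 by 6.11. These 15 genes were picked because all 9 tumours lay below every pool, so a lower level within each title series follows from that choice. Cdh16 differed by -6.61 in the JK arrays and by -6.09 in the arrays outside JK.

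The 15 widest gaps on the higher side were narrower, between 1.09 and 1.77, and they mixed DNA synthesis, matrix and other genes. Rrm2, the small subunit of ribonucleotide reductase, came first: it was 9.50 to 11.37 in recurrent tumours with a median of 10.76, against 5.04 to 7.73 with a median of 5.82 in pools. Its difference was 4.23 ± 0.42 (SE, limma adjusted p = 5.87e-06), an 18.8-fold higher signal, and normal 3 and normal 5 were the 2 pools above 7. Cdc6, which loads the replicative helicase on origins, was 6.68 to 8.83 in tumours and 5.13 to 5.57 in pools (2.50, limma adjusted p = 7.28e-05). Uck2, a kinase that salvages uridine and cytidine, was 8.74 to 11 in tumours and 6.69 to 7.64 in pools (2.41, limma adjusted p = 7.63e-05).

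Matrix and secreted proteins made up a further group among them. Col1a1, a chain of type I collagen, was 9.42 to 13.23 in recurrent tumours with a median of 11.96, against 7.36 to 7.88 with a median of 7.51 in pools (4.22 ± 0.55 SE, limma adjusted p = 8.14e-05). Vcan, the proteoglycan versican, was 7.74 to 12.90 in tumours and 6.02 to 6.63 in pools (4.34, limma adjusted p = 5.92e-05). For both genes recurrent 6 was the lowest tumour. Slpi, a secreted inhibitor of leukocyte proteases, spread from 8.93 to 14.65 over tumours, with recurrent 5 and recurrent 1 highest, against 6.61 to 7.58 in pools (4.03, limma adjusted p = 0.00171). Tfpi2, a Kunitz protease inhibitor held in the matrix, was 6.72 to 9.28 in tumours and 4.80 to 5.37 in pools (2.82, limma adjusted p = 5.26e-05).

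The remainder of the widest rises came from genes of varied roles. Irx5, an Iroquois homeobox factor, was 7.0 to 9.61 in recurrent tumours, highest in recurrent 6, and 4.64 to 5.47 in pools (3.08, limma adjusted p = 2.36e-05). Nfil3, a basic leucine zipper repressor, was 7.38 to 10.28 in tumours and 5.36 to 6.30 in pools (3.08, limma adjusted p = 3.61e-05). Slc39a6, a zinc importer, had one of the smaller spreads over tumours among these genes, at 10.03 to 11.31, against 8.06 to 8.80 in pools (2.13 ± 0.19 SE, limma adjusted p = 2.42e-06). The RNA-binding Mbnl3 rose by 2.21, the Rac exchange factor Tiam2 by 2.43, the scaffold protein Mpp6 by 1.90, the translation regulator Bzw1 by 1.68 and the proteasome lid subunit Psmd7 by 1.58, although another Psmd7 probe set gave -0.08 (limma adjusted p = 0.78). Tiam2 was 9.39 in recurrent 7 and at most 7.39 elsewhere.

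**Figure D3:**
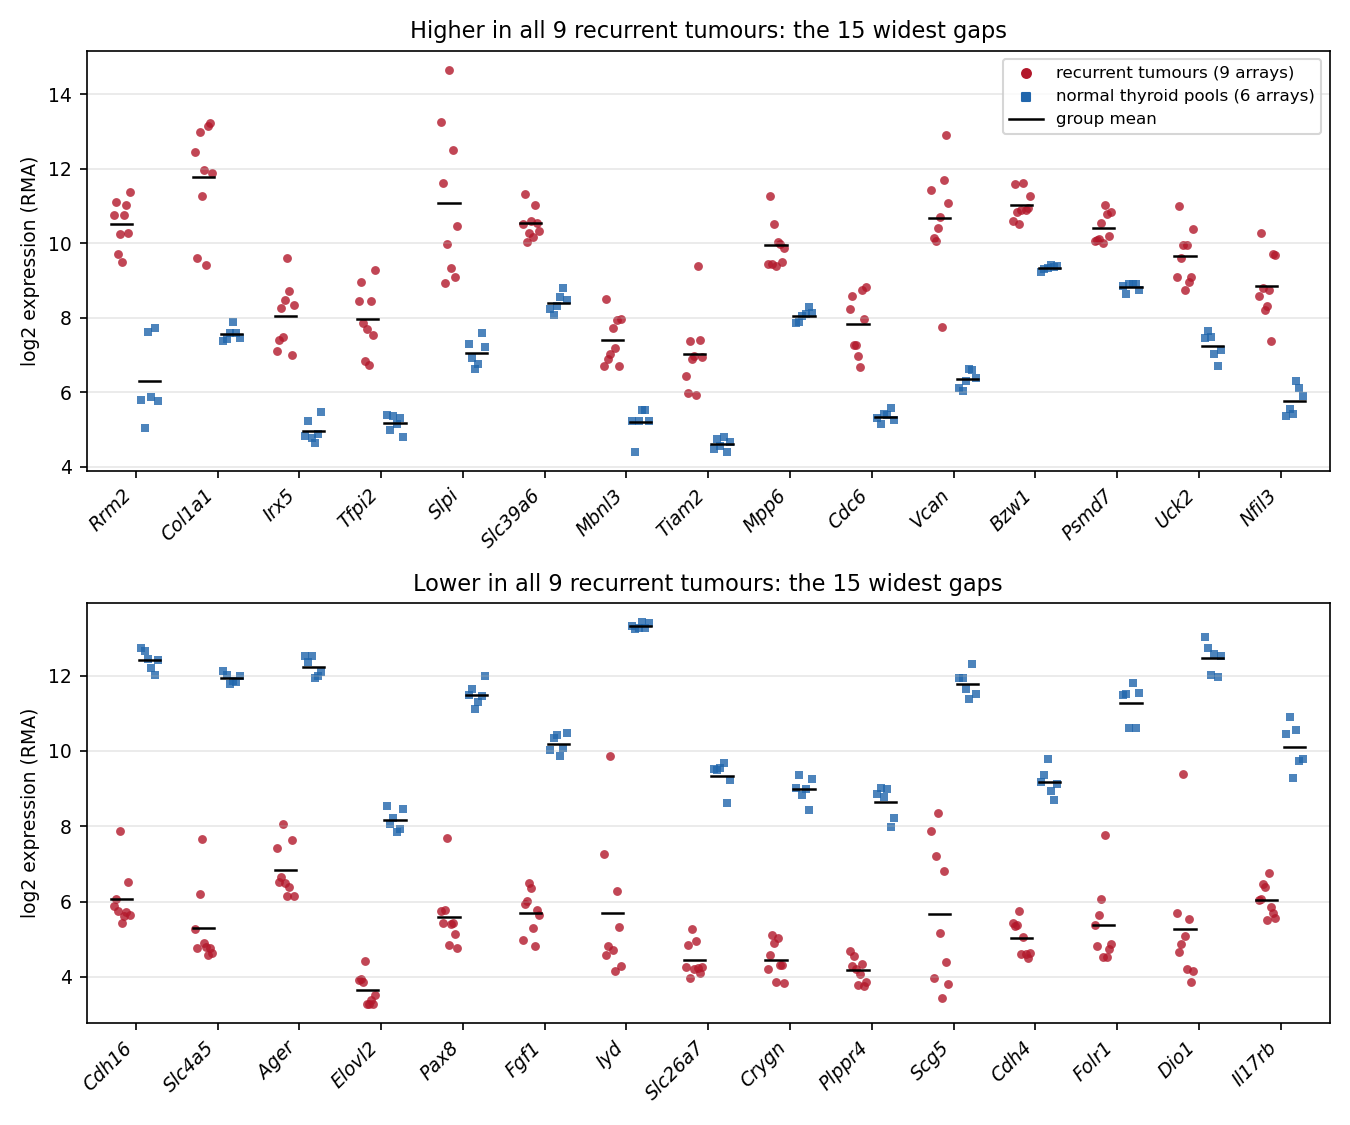
Log2 level on each array of the 15 genes with the widest gap in each direction, with recurrent tumours as circles left of the pools as squares and a line at each group mean. The lower panel's gaps, 2.52 to 4.14, are wider than the upper panel's, 1.09 to 1.77, and the tumours spread more than the pools for most genes.

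Genes of mitosis rose in recurrent tumours. Of 27 genes of the list 26 were measured, and 25 were called higher, with a median difference of 2.77 over the list, against -0.03 over all genes. For 10 of them all 9 tumours lay above every pool. Of all genes, 10.7% were called higher and 2.90% were higher without overlap. The mean level of the list was 6.39 to 9.54 in tumours and 5.51 to 6.55 in pools, so only recurrent 6 lay within the pools' range. Normal 3 and normal 5, at 6.37 and 6.55, were the highest pools.

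Birc5, a subunit of the chromosomal passenger complex, was 6.23 to 10.68 in recurrent tumours with a median of 9.77, against 4.28 to 6.53 with a median of 4.79 in pools (4.13 ± 0.60 SE, limma adjusted p = 0.000187). Cdk1, the kinase that starts mitosis, was 7.24 to 11.06 in tumours and 5.28 to 7.0 in pools (3.73, limma adjusted p = 0.000107). Mki67, the proliferation marker, was 7.91 to 12.37 in tumours with a median of 10.46, against 5.91 to 8.56 with a median of 6.35 in pools (3.47, limma adjusted p = 0.000774). In all 3 genes recurrent 6 was the lowest tumour, and in Mki67 and Birc5 it lay below normal 3 and normal 5. The checkpoint kinase Bub1 and the topoisomerase Top2a rose by 3.81 and 3.78, with 8 of 9 tumours above every pool. Top2a has another probe set that gave -0.15 (limma adjusted p = 0.479). The exception in the list was Foxm1, the transcription factor of the G2 phase programme: it was 6.92 to 9.35 in tumours, with recurrent 1, 2 and 3 at 8.04, 8.07 and 9.35, and 6.96 to 7.42 in pools (0.32, limma adjusted p = 0.508). Fitted in the JK series alone, Foxm1 was called higher (1.27, limma adjusted p = 0.0271). Over all 15 arrays another Foxm1 probe set was called higher (0.66, limma adjusted p = 0.0485). Its remaining probe sets were not called, at 0.50 and 0.04 (limma adjusted p = 0.242 and 0.894).

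DNA replication genes also rose. Of 25 genes 23 were measured, 19 were called higher and 1 lower, and 11 of the higher ones did not overlap, with a list median of 1.42. Over all genes 10.7% were called higher, 14.7% were called lower, and 2.90% were higher without overlap. Mcm5, a subunit of the replicative helicase, was 6.90 to 9.10 in recurrent tumours and 4.69 to 6.10 in pools (2.72, limma adjusted p = 4.9e-05). Uhrf1, which reads hemimethylated DNA behind the fork, was 8.29 to 10.36 in tumours and 6.50 to 7.83 in pools (2.37, limma adjusted p = 9.54e-05). The gene called lower was Gmnn, the inhibitor of origin licensing: it was 8.45 to 9.76 in tumours and 10.09 to 10.67 in pools, below the pools in all 9 tumours (-1.16, limma adjusted p = 0.000375).

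Promoters of these genes are shown because cell cycle genes are known to carry short elements near their start: the CHR (TTTGAA) and the CCAAT box in genes of the late cycle, and E2F elements (searched as TTTNNCGC) in genes of DNA synthesis. The lists were matched by symbol to RefSeq windows of assembly GRCm38.p6, from 250 bases before to 50 after a gene's start, and both strands were searched. Of the mitosis genes 21 had a window, and the CHR was in 16 of them (76.2%), against 1521 of 9888 measured genes with a window (15.4%). The CCAAT box was in 17 of 21 (81%), in 13 of 20 replication genes (65%) and in 13 of 14 genes of endoplasmic reticulum folding (92.9%), a list that fell, against 42.3% of all genes. The E2F letters were in 10 of 20 replication genes with a window (50%) and in 1 of 21 mitosis genes, against 8.75% of all genes, and the CHR was in 2 of the 20 replication genes. A gene with several windows counts once if any of them holds the letters. CHR and CCAAT matches are in capitals in the first 3 sequences, which belong to genes that were higher in all 9 tumours (Ccnb2, a B-type cyclin, by 3.13, Cdk1 by 3.73, and Cenpa, the centromeric histone, by 3.47). E2F matches alone are in capitals in the other two. All are written 5′ to 3′ along the gene.
Ccnb2, chr9:70421505-70421804, minus strand: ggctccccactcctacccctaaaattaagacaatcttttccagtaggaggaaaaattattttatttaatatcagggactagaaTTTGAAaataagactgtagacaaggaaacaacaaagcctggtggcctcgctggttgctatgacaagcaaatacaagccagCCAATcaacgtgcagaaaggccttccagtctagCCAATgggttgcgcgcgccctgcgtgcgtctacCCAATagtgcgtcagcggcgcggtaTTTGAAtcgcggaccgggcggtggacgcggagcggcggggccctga
Cdk1, chr10:69352863-69353162, minus strand: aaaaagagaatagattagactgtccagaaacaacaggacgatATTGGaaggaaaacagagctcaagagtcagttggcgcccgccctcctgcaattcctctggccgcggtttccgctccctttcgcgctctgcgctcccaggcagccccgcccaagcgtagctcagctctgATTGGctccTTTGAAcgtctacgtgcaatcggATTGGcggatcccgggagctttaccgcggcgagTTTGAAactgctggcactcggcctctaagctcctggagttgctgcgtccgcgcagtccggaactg
Cenpa, chr5:30666636-30666935, plus strand: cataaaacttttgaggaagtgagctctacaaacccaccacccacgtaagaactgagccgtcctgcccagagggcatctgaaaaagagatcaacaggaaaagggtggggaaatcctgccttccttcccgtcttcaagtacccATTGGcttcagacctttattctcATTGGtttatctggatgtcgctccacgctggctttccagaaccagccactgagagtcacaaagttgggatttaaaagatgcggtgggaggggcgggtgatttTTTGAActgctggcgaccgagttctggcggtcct
Cdc6, chr11:98907901-98908200, plus strand: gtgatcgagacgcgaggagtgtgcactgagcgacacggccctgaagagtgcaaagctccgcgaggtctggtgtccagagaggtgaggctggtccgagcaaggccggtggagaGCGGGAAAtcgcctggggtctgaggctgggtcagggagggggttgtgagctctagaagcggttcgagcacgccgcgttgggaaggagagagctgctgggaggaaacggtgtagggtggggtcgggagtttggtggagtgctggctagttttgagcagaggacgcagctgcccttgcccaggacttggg
Mcm5, chr8:75109259-75109558, plus strand: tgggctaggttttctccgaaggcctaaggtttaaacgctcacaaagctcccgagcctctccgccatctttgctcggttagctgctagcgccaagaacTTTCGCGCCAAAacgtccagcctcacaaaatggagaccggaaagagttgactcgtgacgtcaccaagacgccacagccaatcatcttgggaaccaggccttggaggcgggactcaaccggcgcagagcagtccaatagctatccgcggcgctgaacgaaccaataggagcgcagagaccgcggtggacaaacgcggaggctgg

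In these windows a CHR lay 5 bases after the start of Ccnb2, 15 bases before the start of Cdk1 and 17 bases after that of Cenpa, and each window had a CCAAT box upstream of it, on the opposite strand (ATTGG) in Cdk1 and Cenpa. The E2F letters lay 138 bases before the start of Cdc6, on the opposite strand, and in Mcm5 a match on each strand overlapped, 153 and 149 bases before the start. A match describes the letters in a window and is not a measured binding site.

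Mesenchymal genes rose as well. Of 20 genes 19 were measured, and 13 were called, each of them higher, with a median of 1.47 and 2 genes without overlap. The shares over all genes were 10.7% called higher and 2.90% higher without overlap. Lox, the enzyme that cross-links collagen, was 8.32 to 13.36 in recurrent tumours with a median of 11.33, against 6.99 to 8.43 with a median of 7.24 in pools (3.61 ± 0.57 SE, limma adjusted p = 0.000386). Fn1, fibronectin, was 11.42 to 13.95 in tumours and 9.28 to 10.75 in pools (3.03, limma adjusted p = 5.26e-05), and Cdh11, a mesenchymal cadherin, was 7.5 to 12.98 in tumours and 5.56 to 7.36 in pools (3.13, limma adjusted p = 0.00325). Both lay above the pools in every tumour. S100a4, a calcium-binding protein of fibroblasts and motile cells, was called (3.09, limma adjusted p = 0.00977), but normal 5, at 11.48, lay above recurrent 6 and recurrent 7, at 8.90 and 10.08. The intermediate filament gene Vim, already at 11.13 to 12.42 in pools, was at 11.80 to 13.90 in tumours (1.64, limma adjusted p = 0.000828).

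The collagen and matrix list had 12 of 19 measured members called, each of them higher and 4 of them without overlap, with a median of 1.66. Among all genes 10.7% were called higher and 2.90% were higher without overlap. Besides Col1a1, Thbs2, a matricellular thrombospondin, was 7.89 to 11.62 in recurrent tumours and 6.22 to 7.56 in pools (3.22, limma adjusted p = 0.000145). Col5a2, a chain of type V collagen that seeds fibrils, was 10.71 to 13.98 in tumours and 9.13 to 9.98 in pools (3.0, limma adjusted p = 8.69e-05), and its partner Col5a1 rose by 2.79 in 8 of 9 tumours above every pool. The difference was not shared by all matrix genes: Dcn, the proteoglycan decorin, was 9.92 to 14.25 in tumours and 12.97 to 13.41 in pools (-0.13, limma adjusted p = 0.887), and Sparc, a collagen-binding glycoprotein, differed by 0.08 (limma adjusted p = 0.9). Recurrent 6 had the lowest level of Col1a1, Thbs2, Col5a2 and Col5a1.

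Among matrix proteases and their inhibitors 8 of 15 measured genes were called higher and 1 lower, beside 10.7% and 14.7% of all genes, with a median of 2.33. Timp1, an inhibitor of metalloproteinases, had the largest difference of the list: it was 9.39 to 13.17 in recurrent tumours with a median of 12.36, against 5.79 to 8.93 with a median of 6.15 in pools (5.21 ± 0.57 SE, limma adjusted p = 1.55e-05). The pool at 8.93 was normal 5, without which the difference was 5.67. Mmp13, a collagenase, was 5.17 to 13.88 in tumours, highest in recurrent 7, and 3.68 to 6.72 in pools (5.01, limma adjusted p = 0.00257). Plat, tissue plasminogen activator, was 9.09 to 12.37 in tumours and 7.07 to 8.05 in pools, a gap of 1.05 (2.89, limma adjusted p = 9.81e-05). Mmp3, the stromelysin, rose by 3.49 (limma adjusted p = 0.0305), a call lost in 7 of the 15 fits that left out 1 array (adjusted p up to 0.0681). Timp3, the matrix-bound inhibitor, was the gene called lower, at 7.98 to 11.83 in tumours and 12.05 to 12.84 in pools (-1.89, limma adjusted p = 0.0101).

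The TGF-beta list had 6 of 14 measured genes called higher and 1 lower, beside 10.7% and 14.7% of all genes. Its median was 0.88, and its count of higher calls was 10 without recurrent 6. Inhba, which encodes the subunit of activin A, was 7.99 to 11.13 in recurrent tumours and 6.74 to 8.11 in pools (2.33, limma adjusted p = 0.00236). Tgfbi, a secreted TGF-beta target, was 11.76 to 12.94 in 8 tumours and 7.99 in recurrent 6, against 9.29 to 9.65 in 5 pools and 11.71 in normal 5 (2.15, limma adjusted p = 0.0257). The Tgfbi call was lost when any 1 pool other than normal 5 was left out (adjusted p up to 0.0576). Tgfb3, a ligand, and Acvr1, a type I receptor, rose by 1.71 and 1.28, and of the other probe sets of Acvr1 one was called at 1.51 and one was not called (limma adjusted p = 0.000132 and 0.988). The gene called lower was Ltbp3, which binds latent TGF-beta in the matrix (-1.44, limma adjusted p = 0.00399), with all 9 tumours below every pool.

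Epithelial genes fell as well. Of 26 genes 25 were measured, and 18 were called, each of them lower, with a median of -2.48, but the groups stayed apart for 2 of them only, Cdh16 and Prss8. Over all genes 14.7% were called lower and 5.12% were lower without overlap. The mean of the list was 6.58 to 10.17 in recurrent tumours with a median of 7.41, against 10.07 to 10.59 in pools. Recurrent 6 at 10.17 lay within the pools' range, and recurrent 5 at 9.71 and recurrent 4 at 8.94 were the next.

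Prss8, a membrane serine protease of epithelia, was 4.65 to 10.28 in recurrent tumours with a median of 6.72, against 10.48 to 10.74 in pools (-3.67 ± 0.66 SE, limma adjusted p = 0.000946). Cldn7, a tight junction claudin, was 4.40 to 12.15 in tumours and 11.03 to 11.32 in pools (-3.51, limma adjusted p = 0.0157), and Epcam, an epithelial adhesion molecule, was 6.43 to 13.26 in tumours and 12.65 to 12.89 in pools (-3.14, limma adjusted p = 0.0211). For both, recurrent 6 lay above every pool and the other 8 tumours below. Cdh1, E-cadherin, was 6.37 to 12.35 in tumours and 11.94 to 12.57 in pools (-2.35, limma adjusted p = 0.0275). Its call was lost in 3 of the 15 fits that left out 1 array, with adjusted p up to 0.0534. The keratins Krt8 and Krt18 did not follow, while the list's other keratins were called lower (-2.87 and -2.42, limma adjusted p = 0.0176 and 0.0499). Krt8 was 10.51 to 13.77 in tumours and 12.08 to 13.92 in pools (-0.08, limma adjusted p = 0.928), and Krt18 was 9.11 to 13.04 in tumours and 11.10 to 12.71 in pools (-0.30, limma adjusted p = 0.772). Recurrent 2 and recurrent 3, lowest in Cdh1 and low in Epcam at 6.48 and 6.43, had Krt18 at 12.74 and 13.04.

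Braf itself did not separate the groups. It was 11.14 in recurrent 2 and 5.62 to 7.14 in the other 8 tumours, against 5.95 to 6.67 in pools, and the difference was 0.49 (limma adjusted p = 0.642), or -0.06 without recurrent 2. A probe set reads total transcript and does not tell a transgene or a mutant allele from the endogenous one. Of 18 measured MAPK output genes 9 were called higher and 1 lower, beside 10.7% and 14.7% of all genes, with a median of 0.90.

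Fosl1, an AP-1 subunit, was 5.59 to 10.39 in recurrent tumours with a median of 8.93, against 5.10 to 5.51 with a median of 5.41 in pools (2.7 ± 0.70 SE, limma adjusted p = 0.0105). The tumours spread widely: 6 of them were at 7.55 or above, and recurrent 5, 6 and 7 were at 5.81, 5.59 and 6.18. Myc, the growth regulator, was 7.89 to 11.99 in tumours and 7.17 to 7.96 in pools (2.26, limma adjusted p = 0.00214). Ier3, an immediate early gene, was 9.16 to 13.43 in tumours and 7.75 to 9.50 in pools (2.33, limma adjusted p = 0.00452), and recurrent 2, the tumour with high Braf, was the highest for Fosl1, Myc, Ier3 and Egr1. Lif, a cytokine of the interleukin-6 family, rose by 1.68 in all 9 tumours, with a gap of 0.03. The D-type cyclin Ccnd1 rose by 1.61 (limma adjusted p = 0.00168). Etv4 was also highest in recurrent 2 (9.22), but Lif peaked in recurrent 1 (8.48), Ccnd1 in recurrent 3 (11.99) and Dusp6 in recurrent 9 (11.84).

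Of the feedback genes named here 1 was called higher and 1 lower. Sprouty and Spred genes of the list other than Spry1 were not called, at -0.02 to 0.33 (limma adjusted p = 0.617 to 0.978). Each of them was highest among tumours in recurrent 2, whereas Spry1 was highest in recurrent 8, at 8.94. Dusp6, the phosphatase that acts on ERK, was 9.97 to 11.84 in recurrent tumours with a median of 10.68, against 9.83 to 10.38 with a median of 10.18 in pools, and 8 of 9 tumours lay above every pool (0.77 ± 0.27 SE, limma adjusted p = 0.0445). The call was lost in 10 of the 15 fits that left out 1 array, with adjusted p up to 0.0989. Spry1, a Sprouty inhibitor of receptor signalling, was lower in all 9 tumours, at 7.74 to 8.94, against 9.19 to 9.56 in pools (-0.90, limma adjusted p = 0.00168). Of the ETS factors downstream of ERK, Etv4 was 6.55 to 9.22 in tumours and 6.50 to 7.05 in pools (1.02, limma adjusted p = 0.0323, lost in 7 of 15 fits that left out 1 array), and Etv5 was not called (-0.53, limma adjusted p = 0.0815).

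**Figure D4:**
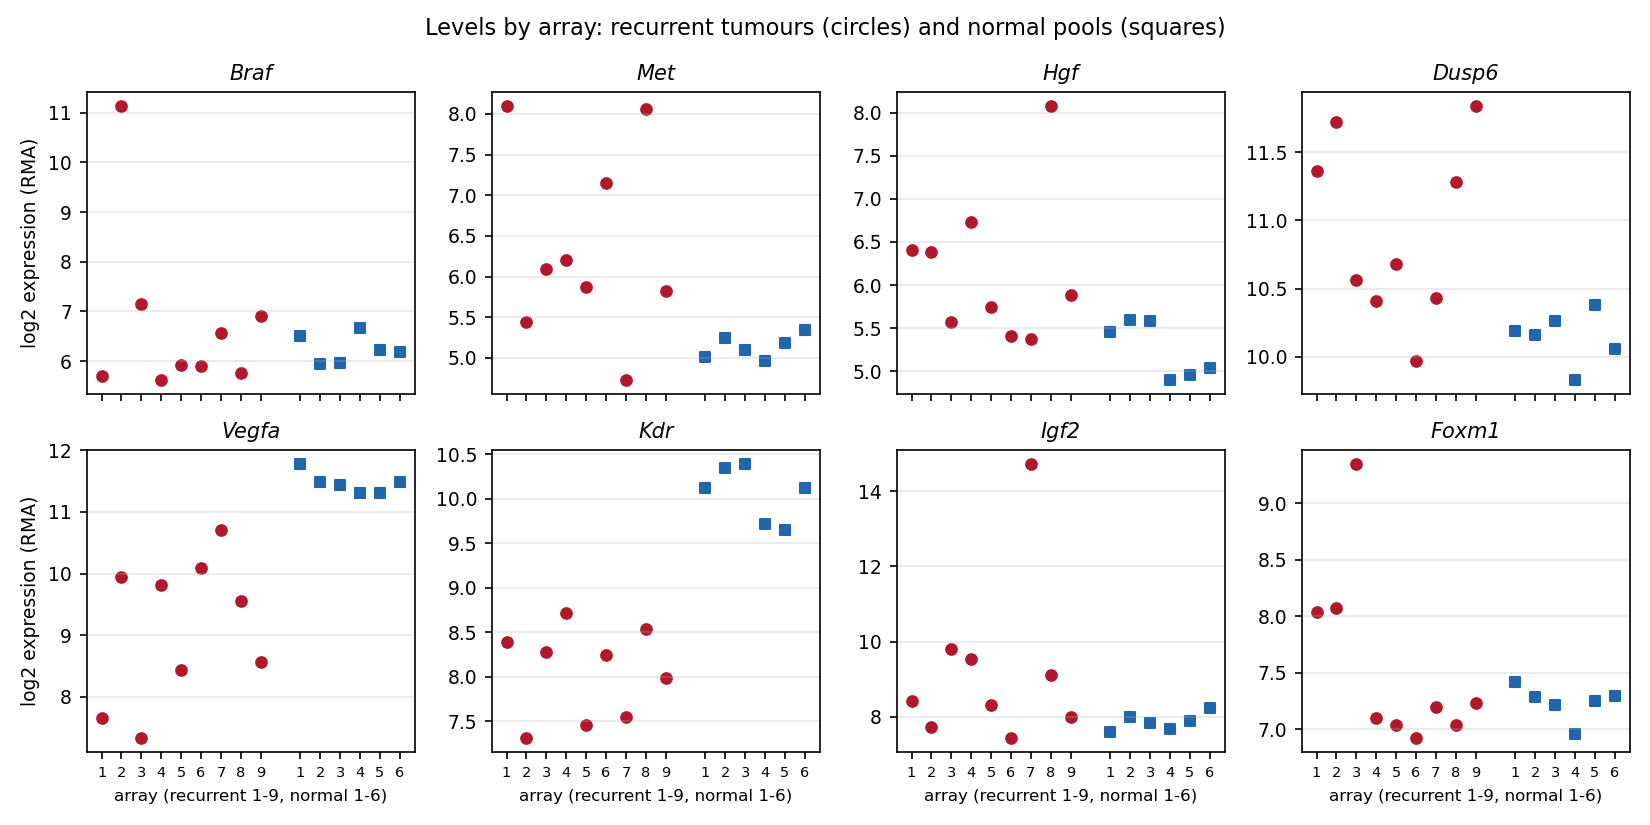
Log2 level by array of 8 genes, with recurrent tumours 1 to 9 as circles left of pools 1 to 6 as squares. Each vertical axis has its own range and does not start at 0. Single tumours stand out for Braf (recurrent 2, 11.14), Hgf (recurrent 8, 8.08), Igf2 (recurrent 7, 14.73) and Foxm1 (recurrent 3, 9.35), whereas Vegfa and Kdr are below every pool in all 9.

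Met, the receptor named in the study's title, was 4.73 to 8.10 in recurrent tumours with a median of 6.09, against 4.96 to 5.34 with a median of 5.14 in pools. Of 9 tumours 8 lay above every pool and recurrent 7 below, and the difference was 1.25 ± 0.45 (SE, limma adjusted p = 0.0526), which missed the threshold. It passed in the fit of all 24 arrays (limma adjusted p = 0.0143), with weights per group or per array (0.00736 and 0.00089) and after another quantile normalization or centring (0.04 and 0.0448), and it did not pass in the JK series alone (0.0941) or with title series as a block (0.0711). It also did not pass against WT-titled pools alone (0.123) or outside the JK series (0.56). Of the 15 fits that left out 1 array, 13 did not pass (limma adjusted p up to 0.0979). Those that passed were without recurrent 7, at 1.45 (limma adjusted p = 0.016), and without recurrent 2, at 1.36 (limma adjusted p = 0.0395). Recurrent 1 and recurrent 8, at 8.10 and 8.06, were the highest, followed by recurrent 6 at 7.15. Hgf, its ligand, was 5.37 to 8.08 in tumours with a median of 5.88, against 4.90 to 5.60 with a median of 5.25 in pools (0.92 ± 0.35 SE, limma adjusted p = 0.0656). Recurrent 8 was the highest at 8.08 and recurrent 4 the next at 6.73, so recurrent 8 was the tumour with both transcripts near their maximum. Leaving out recurrent 6, 7 or 8 brought Hgf past the threshold, at 1.02, 1.02 and 0.68 (limma adjusted p = 0.0376, 0.0428 and 0.0488). Hgf also passed with all 24 arrays and with weights per group or per array (limma adjusted p = 0.0175, 0.0248 and 0.00515). It did not pass in the JK series alone (0.0898), with title series as a block (0.08), with the mean of probe sets (0.12) or against WT-titled pools alone (0.225). Another quantile normalization or centring also left it short (0.0518 and 0.0553), as did 12 of the 15 fits that left out 1 array (adjusted p up to 0.131). The other Hgf probe set was not called (0.65, limma adjusted p = 0.267).

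Some genes next to Met on the chromosome were highest in the same tumours. Of 11 measured neighbours 1 was called higher and 1 lower, beside 10.7% and 14.7% of all genes, with a median of -0.02. The higher calls ran from 0 to 3 when 1 array was left out, with 3 without recurrent 6. The cytoskeletal genes Capza2 and Tes were at 13.34 and 12.93 in recurrent 1 and at 13.24 and 13.04 in recurrent 8, against at most 11.99 and 11.41 in the other tumours. The caveolins Cav1 and Cav2 were likewise highest there, both Cav2 values at 12.64. Recurrent 7 had the lowest Cav1, Cav2 and Met. Recurrent 6, the next highest for Met at 7.15, had the lowest Tes and Capza2 of the tumours, at 8.83 and 11.25. It also had their lowest mean of the neighbour list, at 7.52. Over the groups, Tes differed by 1.32 and Capza2 by 0.65 (limma adjusted p = 0.115 and 0.142). The other probe set of each was called higher, at 1.92 for Tes and 1.26 for Capza2 (limma adjusted p = 0.0371 and 0.011). The called neighbours were Tfec, a transcription factor of macrophages, which rose by 2.01 (limma adjusted p = 0.0333, lost in 7 of 15 fits that left out 1 array), and Cftr, the epithelial chloride channel, which fell by 1.99 (limma adjusted p = 0.00171).

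HGF is made as an inactive precursor that serine proteases cut, and these proteases have membrane-bound inhibitors. Of the 10 measured genes of the axis 1 was called higher, 4 lower and 5 were not called. Of all genes, 10.7% were called higher and 14.7% lower. The activating proteases differed in direction: Plat rose, as given above, Plau, urokinase, was 5.15 to 9.14 in recurrent tumours and 5.69 to 7.32 in pools (0.63, limma adjusted p = 0.456), and St14 and Hpn fell. St14, the protease matriptase, was 5.61 to 10.41 in tumours and 9.93 to 10.61 in pools (-2.60, limma adjusted p = 0.0107), and Hpn, the protease hepsin, fell by 1.72 (limma adjusted p = 0.00318). The inhibitors Spint1 and Spint2 fell by 2.19 and 2.82 (limma adjusted p = 0.00969 and 0.0167). St14, Hpn and Spint2 were highest among tumours in recurrent 6, the tumour with the highest epithelial mean, and 3 of the 4 genes are also on the epithelial list.

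Other receptor tyrosine kinases and ligands split evenly, with 6 of 25 measured genes called higher and 6 lower and a median of -0.05. The count of higher calls ran from 2 to 7 when 1 array was left out, beside 10.7% of all genes called higher and 14.7% lower in the main fit. Axl, a receptor for the vitamin K-dependent ligand Gas6, was 8.29 to 11.33 in recurrent tumours and 7.82 to 8.55 in pools (2.12, limma adjusted p = 0.00267), and its relative Tyro3 was 5.39 to 7.79 in tumours and 4.19 to 5.08 in pools (2.0, limma adjusted p = 0.000537). Ereg, the EGF receptor ligand epiregulin, spread from 3.91 to 12.10 in tumours, against 3.78 to 7.20 in pools (3.88, limma adjusted p = 0.0222, lost without normal 1 or normal 3, adjusted p up to 0.0514). Recurrent 6 and recurrent 7 had the lowest Axl and Ereg. Kit, the receptor for stem cell factor, was 6.0 to 8.19 in tumours and 9.50 to 10.03 in pools (-2.79 ± 0.29 SE, limma adjusted p = 1.1e-05), a gap of 1.31. Fgfr2 and Erbb3, receptors of epithelia, differed by -3.40 and -2.45 (limma adjusted p = 0.00324 and 0.0187), and the ligand Tgfa by -1.2 (limma adjusted p = 0.0432, lost in 9 of 15 fits that left out 1 array). Fgfr2 was 11.44 in recurrent 7, within the pools' 10.90 to 11.47, and at most 9.77 in the other tumours.

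Chaperones and folding enzymes of the endoplasmic reticulum, the compartment through which a secretory cell passes its product, fell together. Of 16 measured genes 13 were called, each of them lower, 9 genes of the list did not overlap, and the median was -1.03. Among all genes 14.7% were called lower and 5.12% were lower without overlap. The list mean was 10.37 to 11.31 in recurrent tumours and 11.55 to 12.30 in pools, with no overlap. Sdf2l1, a luminal chaperone component, was 7.56 to 9.23 in tumours and 10.16 to 11.89 in pools (-2.20 ± 0.31 SE, limma adjusted p = 0.000134). Pdia4 and Pdia3, protein disulfide isomerases, fell by 1.56 and 1.42, and the co-chaperone Dnajc3 by 1.48. Calr, calreticulin, was 12.23 to 12.98 in tumours and 13.45 to 13.78 in pools (-0.93, limma adjusted p = 0.000146). Ddit3, induced when folding is stressed, was not called (0.23, limma adjusted p = 0.789), and was highest in recurrent 7 at 11.87.

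Of 20 measured respiratory chain genes 9 were called, each of them lower, and 11 were not, with a median of -0.61, beside 14.7% of all genes called lower. Without recurrent 4 the lower calls numbered 15, and in the JK series alone 16. Ndufb8, a subunit of complex I, was 10.97 to 12.58 in recurrent tumours and 12.73 to 13 in pools (-1.22, limma adjusted p = 0.000668). Sdha, a subunit of complex II, fell by 1.22, and Cox8a and Cox7a2, subunits of complex IV, by 0.94 and 0.84. In glycolysis and hypoxia genes 5 of 20 were called higher and 2 lower, beside 10.7% and 14.7% of all genes. The higher calls ran from 2 to 6 when 1 array was left out. Pkm, pyruvate kinase, was 11.22 to 12.87 in tumours and 10.46 to 11.01 in pools (0.96, limma adjusted p = 0.00556), above every pool in all 9. Pgam1 and Ldha, also of glycolysis, rose by 0.86 and 0.68, and Ldha was no longer called without normal 1 (limma adjusted p = 0.0526). The lactate exporter Slc16a3 and the oxygen sensor Egln3 rose by 1.42 and 1.52, calls lost in 11 of 15 fits each (adjusted p up to 0.0908 and 0.071). The glucose transporter Slc2a1 was 12.89 in recurrent 2 and was not called (0.44, limma adjusted p = 0.413).

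The vascular growth factor Vegfa was one of the genes called lower in that list. It was 7.33 to 10.71 in recurrent tumours with a median of 9.55, against 11.30 to 11.78 with a median of 11.46 in pools (-2.34 ± 0.45 SE, limma adjusted p = 0.00168), below the pools in all 9 tumours. Its receptors on endothelium fell with it. Kdr was 7.31 to 8.72 in tumours and 9.65 to 10.39 in pools (-2.0, limma adjusted p = 2.39e-05), and Flt1 was 7.73 to 8.87 in tumours and 9.39 to 9.82 in pools (-1.42, limma adjusted p = 0.000112). Of 20 endothelial genes 9 were called, each of them lower, with a median of -0.62, beside 14.7% of all genes called lower. Leaving out 1 array gave between 5 lower calls (without normal 6) and 12. Emcn, a sialomucin of veins and capillaries, fell by 1.57, and the tip cell gene Esm1 by 2.50 (limma adjusted p = 0.000668 and 0.0277), the call of Esm1 being lost in 4 of 15 fits. Sox17, a factor of arterial endothelium, fell by 1.51 (limma adjusted p = 0.0262), with normal 5 at 10.28 and the other pools at most 7.99. Pan-endothelial junction genes were not called: Pecam1 differed by -0.01 and Cdh5 by 0.16 (limma adjusted p = 0.982 and 0.626). Another Cdh5 probe set gave -0.44 (limma adjusted p = 0.0235).

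Of the immune lists the macrophage one had the most calls, 8 of 22 measured genes, each of them higher, beside 10.7% of all genes called higher. Its median was 1.31, with overlap in every gene. Leaving out 1 array gave between 5 calls, without normal 1 or normal 6, and 12, without recurrent 2. Its mean level was 7.03 to 10.88 in recurrent tumours and 7.49 to 9.12 in pools, and recurrent 6, 2 and 7, at 7.03, 8.23 and 8.35, were below normal 5. Arg1, the arginase of alternatively activated macrophages, was 5.45 to 13 in tumours with a median of 10.31, against 4.07 to 6.35 with a median of 4.57 in pools (5.02 ± 0.98 SE, limma adjusted p = 0.00171). Itgam, the integrin CD11b, was 4.77 to 8.88 in tumours and 3.99 to 4.93 in pools (2.54, limma adjusted p = 0.002). Chil3, a chitinase-like protein, spread from 3.92 to 13.53 over tumours (4.04, limma adjusted p = 0.0298), a call lost in 7 of 15 fits. Msr1, a scavenger receptor, rose by 2.41, with 5 tumours above normal 5.

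The neutrophil list had 2 of 11 genes called, S100a8 and S100a9, the calprotectin pair, which rose by 3.58 and 2.98 (limma adjusted p = 0.00852 and 0.0287), beside 10.7% of all genes called higher. The S100a9 call was lost in 4 of 15 fits that left out 1 array (adjusted p up to 0.0584), and the list had 1 higher call without normal 2, 4 or 6. Recurrent 2 had both at their highest, 13.91 and 13.72, while recurrent 6 had S100a8 at 11.06 and S100a9 at 6.41. Of 16 T and NK cell genes 0 were called by limma, 2 had an unadjusted p under 0.05, and Cd3e, a chain of the T cell receptor complex, was 5.84 to 6.96 in tumours and 6.34 to 7.0 in pools. Of 9 B and plasma cell genes 1 was called, Cd79b of the B cell receptor, which fell by 2.06 (limma adjusted p = 0.000739), beside 14.7% of all genes called lower. The median of that list was 0.14, with 6 genes positive and 3 negative. Among interferon and antigen presentation genes 5 of 23 were called, each of them lower, with a median of -0.71, beside 14.7% of all genes called lower, and 8 were lower without recurrent 1. In the JK series alone limma called 0 of them, and 3 were lower and 2 higher at an unadjusted p under 0.05. H2-K1, a class I heavy chain, was 10.63 to 12.66 in tumours and 13.01 to 13.49 in pools (-0.91, limma adjusted p = 0.0186), with recurrent 2 lowest. Tap2, a subunit of the peptide transporter, fell by 0.97, and the interferon-induced Rsad2 and Ifit3 by 1.82 and 1.55 (the Ifit3 call was lost without normal 3, limma adjusted p = 0.0513), both highest in recurrent 1, at 9.56 and 9.47. B2m, the class I light chain, differed by -0.64 (limma adjusted p = 0.0575).

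Pools also had high signals for genes of tissues that adjoin the follicles. Of 11 measured adipocyte genes 9 were called lower in recurrent tumours, beside 14.7% of all genes, with a median of -2.99. Normal 5 was the lowest pool for the adipocyte genes named here. Thrsp, a lipogenic factor, was 5.93 to 7.71 in recurrent tumours and 9.76 to 12.70 in pools (-5.30, limma adjusted p = 8.22e-07), and Ucp1, the uncoupling protein of brown fat, was 4.53 to 6.96 in 8 tumours and 9.93 in recurrent 1, against 10.86 to 12.18 in 5 pools and 5.60 in normal 5 (-4.89, limma adjusted p = 0.00247, or -5.86 without normal 5). Adipoq and Lep, adipokines, fell by 4.73 and 2.54. Of 14 C-cell and neuroendocrine genes 9 were called lower and 1 higher, beside 14.7% and 10.7% of all genes. Grp, a neuropeptide, was 9.47 in recurrent 4 and 3.70 to 4.73 in the other tumours, against 11 to 13.51 in pools (-7.56, limma adjusted p = 6.61e-06). Scg2, a granin, fell by 6.33, and Cpe, carboxypeptidase E, rose by 2.0 in 8 of 9 tumours above every pool.

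Parathyroid transcripts were high in some tumours and low in the others. Pth, parathyroid hormone, was 14.76 and 14.58 in recurrent 4 and recurrent 5 and 3.86 to 4.91 in the other 7, against 14.42 to 14.78 in pools (-8.04, limma adjusted p = 0.00343). Chga, chromogranin A, and Kl, Klotho, were high in the same 2 tumours, Chga at 13.87 and 13.44 and Kl at 9.91 and 8.54. Chga was at most 6.99 and Kl at most 4.35 elsewhere among tumours. The calcium-sensing receptor Casr was called at -1.0 (limma adjusted p = 0.038), and the call was lost in 10 of 15 fits.

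Skeletal muscle, airway and cartilage genes gave few or no calls and large spreads. Of 20 muscle genes 0 were called by limma and 0 had an unadjusted p under 0.05, though 2 were called lower in the JK series alone, with a list mean of 5.77 to 13.59 in recurrent tumours and 8.99 to 11.38 in pools. Of 13 airway and surfactant genes 1 was called, Tekt1 of cilia, which fell by 1.53, beside 14.7% of all genes called lower. The median of that list was 0.74. Among 12 cartilage genes 3 were called higher and 1 lower, beside 10.7% and 14.7% of all genes, and in the JK series alone 1 was called higher and 3 lower. Acan, the proteoglycan aggrecan, was 6.19 to 12.78 in tumours and 4.72 to 5.97 in pools (3.99, limma adjusted p = 0.00126). Col11a1 and Comp rose by 3.47 and 2.74, the call of Comp being lost in 8 of 15 fits, and neither was called in the JK series alone (limma adjusted p = 0.0581 and 0.302). Sox9, a factor of cartilage and many epithelia, fell by 1.35 (limma adjusted p = 0.0383), a call lost in 10. Recurrent 7 held the highest value of all 4, with Sox9 at 11.02 above every pool, and it also had Col2a1 at 13.47 and the growth factor Igf2 at 14.73, against at most 9.79 for Igf2 in the other tumours.

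**Figure D5:**
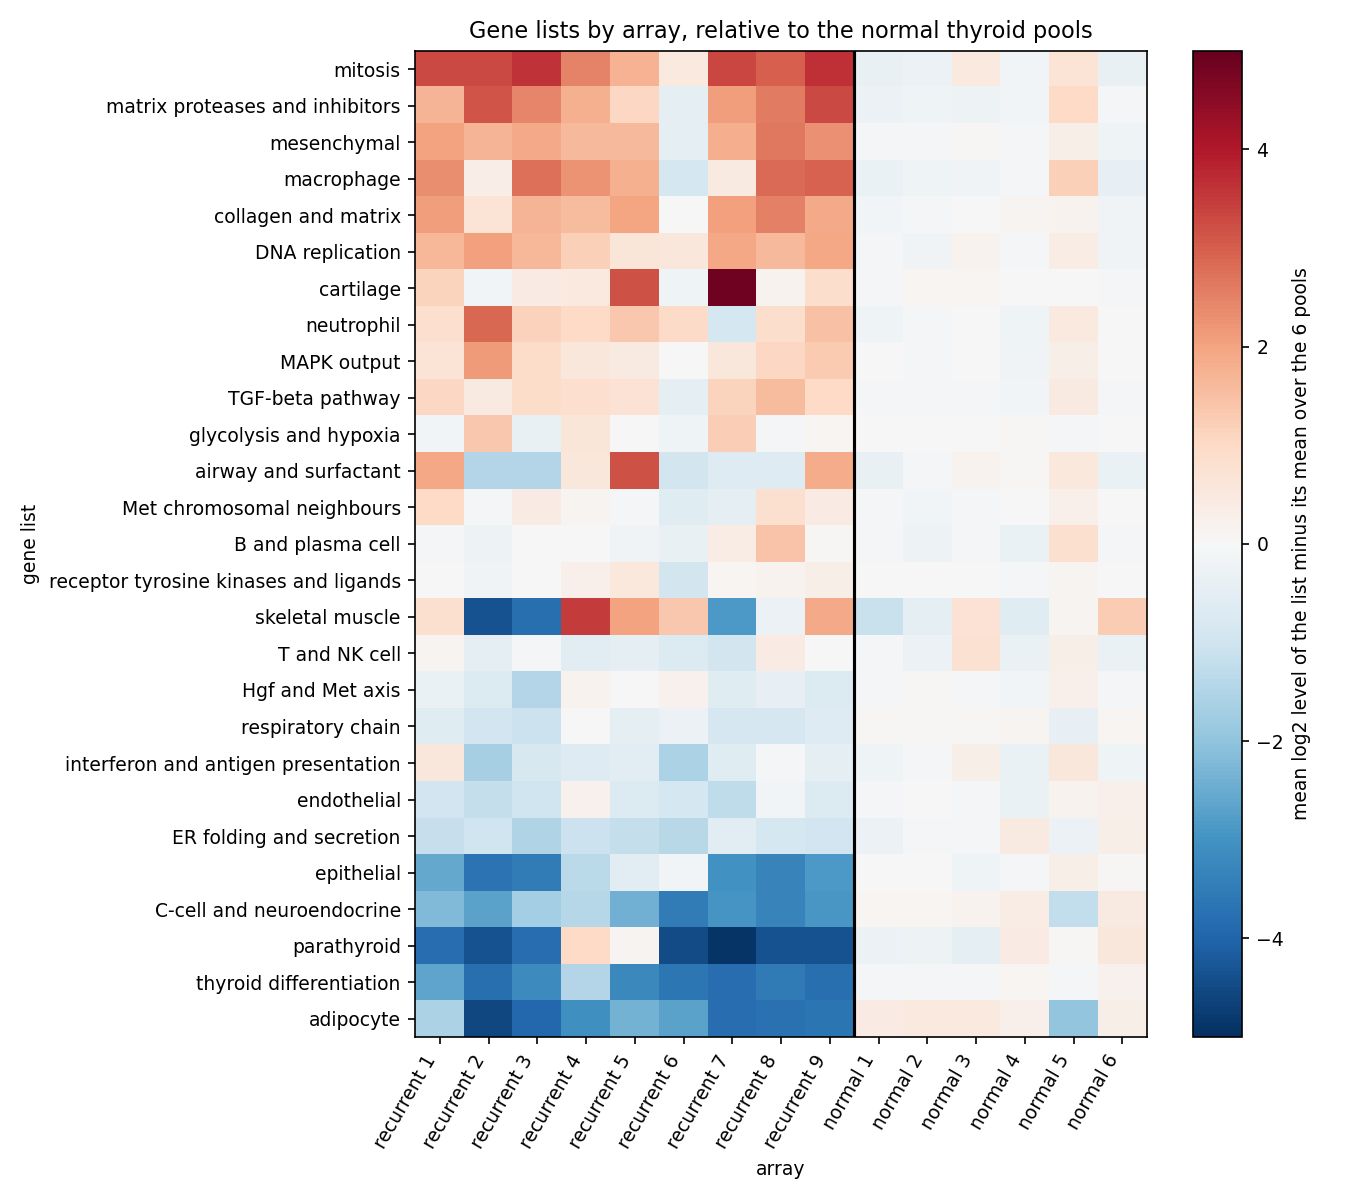
Mean log2 level of each gene list (rows) on each array (columns), minus the mean of that list over the 6 pools, with recurrent tumours left of the line and pools right. Thyroid differentiation is below the pools in all 9 tumours, mitosis is above the pools' mean in all 9 and weakest in recurrent 6, and skeletal muscle, parathyroid, airway and cartilage vary from tumour to tumour.

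The 8 genes with the largest SD over recurrent tumours were Pth and genes of airway, stratified epithelium and striated muscle. Bpifa1, a secreted airway protein, was 13.13 to 14.44 in recurrent 1, 4, 5 and 9 and 3.61 to 5.72 in the other 5, against 10.96 to 14.17 in pools (SD 5.03 in tumours and 1.08 in pools). Scgb1a1 and Scgb3a2, secretoglobins of club cells, had SDs of 3.98 and 3.79 over tumours and 1.76 and 1.14 over pools. Mt4 and Krtdap, genes of stratified epithelium, were low in pools, at 3.91 to 4.52 and 3.98 to 4.84, and reached 13.85 and 14.04 in recurrent 5. Myh1 and Myot, of striated muscle, were 4.85 and 3.81 in recurrent 2 and 4.86 and 3.99 in recurrent 3, and 14.54 and 13.47 in recurrent 4. None of the 8 except Pth was called, and their adjusted p-values from limma were otherwise 0.114 to 0.956. For the genes not called, the SD over tumours exceeded the difference between the groups.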

How the data were processed

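The authors deposited log2 expression values, made with RMA in Partek per the submitters' processing notes. Each of 22690 probe sets has a value on each array. Symbols came from the platform annotation and were updated by gene ID (20393 probe sets had 1 symbol, 691 several and 1606 none), and where several probe sets named a gene the one brightest on average across the series stood for it, which left 12394 genes. Of the 139 called genes that the text names, 56 have another probe set, and for 29 of these at least one other was not called. No pair of the 276 array pairs held identical values. Groups came from the tissue label.

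The 15 arrays were fitted alone with limma 3.58.1 in R 4.3.3 (lmFit and eBayes, Benjamini-Hochberg over all genes), and genes with an adjusted p under 0.05 were called. RMA brings arrays to a common distribution, so a shift of all genes cannot be seen, and the number of arrays limits precision. Tables and figures used Python 3.11.15, pandas 2.3.3, NumPy 2.4.6, SciPy 1.17.1 and matplotlib 3.10.9.

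The comparison and its 27 gene lists were chosen with earlier results of these data known. Named genes were the 15 widest gaps in each direction, up to 4 called members of each list with the largest difference, 8 genes with the largest SD over recurrent tumours, and Braf, Met, Hgf, Tg, Slc5a5, Dusp6 and Mki67. A further 45 of the 170 named genes lie outside that rule and were named after their values were seen. Alternatives changed the arrays fitted, title series, weights, spread estimate, probe set rule, normalization, filter and threshold. Leaving out recurrent 2 and 3 together was added after seeing the data.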

Additional observations from a re-analysis of the deposited data

Results flagged for a closer look

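Each value below lay so far from the rest of its group that its gap to the nearest array exceeded Dixon's 95% critical value. Of 340 groups of a named gene tested, 43 were flagged. Chance flags about 1 in 20 groups of genes taken without regard to their values, a rate that does not apply here, since some of these genes were named for a large spread or after their values were seen. The genes were also read from the same arrays, and no cause was tested.

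Normal 5 held the most flags among pools. It was the highest pool for the keratin Krt18 (12.71), S100a4 (11.48), Timp1 (8.93), Mmp13 (6.72), Inhba (8.11), Tgfbi (11.71), Chil3 (6.19), Msr1 (8.5), H2-K1 (13.49), Sox17 (10.28), the protease St14 (10.61), Ereg (7.20), Tyro3 (5.08) and Plau (7.32). It was the lowest pool for the adipocyte genes Thrsp (9.76), Ucp1 (5.60) and Lep (5.47), for Scg2 (8.10) and Col11a1 (3.56), and for the respiratory chain genes Sdha (11.47) and Cox7a2 (13.49). Normal 2 was the lowest pool for Mbnl3 (4.39) and the highest for Slc16a3 (5.21), and normal 3 was the highest for Cd3e (7.0).

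Recurrent 4 was the highest tumour for Cdh16 (7.88), Pax8 (7.70), Dio1 (9.38) and Grp (9.47). Recurrent 6 was the lowest tumour for Top2a (6.95), Col5a1 (8.22), Tgfbi (7.99) and Cpe (9.84), and the highest for Folr1 (7.77). Recurrent 2 was the highest for Braf (11.14) and the lowest for H2-K1 (10.63). Recurrent 3 was the highest for Foxm1 (9.35) and Lep (5.19) and the lowest for Acvr1 (8.11). Recurrent 7 was the highest for Tiam2 (9.39) and Igf2 (14.73), recurrent 8 for Hgf (8.08), recurrent 1 for Ucp1 (9.93) and recurrent 5 for Tekt1 (7.5).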

How the results depend on the processing

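No named gene that was called reversed its sign under any alternative run. Of 139 called named genes, 139 were called in the fit of all 24 arrays, 135 with title series as a block, 122 in the JK series alone, 112 against WT-titled pools alone, 130 without recurrent 2 and 3, and 26 outside the JK series. Counts of called genes, higher then lower, were 19 and 168 outside the JK series, 2713 and 3406 with weights per array, and 748 and 976 at 2-fold or more. The higher count was 851 genes against WT-titled pools. In the fit of every probe set 2400 were higher, a count of probe sets and not of genes. Non-overlapping genes numbered 2347 higher and 2712 lower in the JK series, 943 and 1697 outside it, and 18 and 102 at a gap of 1. Those higher numbered 596 against WT-titled pools, and 701 probe sets were higher without overlap in the fit of every probe set. Leaving out 1 array gave 952 to 1718 higher calls, 1453 to 2249 lower calls, 363 to 700 higher and 641 to 1009 lower genes without overlap, and a Gapdh 3 prime minus 5 prime difference of -0.61 to -0.46. The lowest non-overlap counts were without recurrent 9 and the highest without recurrent 6. The Gapdh difference was -0.04 in the JK series (exact permutation p = 0.857) and -0.78 outside it (exact permutation p = 0.0714, the lowest p possible with 6 tumours and 2 pools). The cause was not tested. No paired analysis was possible because the labels give no replicate numbers that pair tumours with pools.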
